A study of Rattus norvegicus with 8 samples.

Results

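The dystrophin-glycoprotein complex ties the actin cytoskeleton of a muscle fiber to the basement membrane around it and shields the fiber membrane during contraction. Dystrophin binds actin inside the fiber, dystroglycan spans the membrane and holds laminin outside, and the sarcoglycans, dystrobrevin and syntrophins steady the link and carry signaling proteins. Loss of dystrophin, of a sarcoglycan or of the laminin alpha 2 chain causes muscular dystrophy. The genes described here are Dmd, Utrn, Sgca, Sgcb, Sgcd, Dag1, Sntb1, Dtna and Lama2, taken by symbol from the deposited gene table, and all 9 of the 9 have an entry, among 14016 entries in all. Each stands on a single entry, so no choice between entries was needed.

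The thyroarytenoid (TA) muscle, the muscle of the vocal fold, was taken from male Long Evans rats 8 months of age. The groups were 4 Pink1-/- rats, which carry a knockout of the mitochondrial kinase gene Pink1, and 4 WT rats. RNA was sequenced, and the deposited table holds 1 fitted comparison, Pink1-/- over WT, with no values per rat. The level in each genotype, the spread between rats and the depth of each library are therefore unknown, and every value below is a log2 fold change or an average over all samples. Nothing in the labels says how the rats of a group are related, so the p-values measure only the spread between these samples. Pink1 itself had a log2 fold change of -6.28 (adjusted p = 8.59e-48, edgeR likelihood ratio test), and the genes called at an adjusted p under 0.05 were 145 higher and 33 lower in Pink1-/-. Skeletal muscle markers were abundant, with average log2 CPM (read counts scaled to a common library size) of 9.58 to 14.75 for the 10 of 12 that have an entry, such as the muscle actin gene Acta1 and the creatine kinase gene Ckm.

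None of the 9 genes of the complex passed the test for a difference between Pink1-/- and WT TA muscle. In the edgeR likelihood ratio test 0 of 9 passed an adjusted p under 0.05, where 1.27% of all entries did, and 0 of 9 passed an unadjusted p under 0.05, where 6.17% of all entries did. Their log2 fold changes ran between -0.59 for Sgca and 0.13 for Sntb1, with a median of -0.17, against -0.01 over all entries and -0.06 over the 4532 entries in the same range of average log2 CPM. Of the 9 values, 7 lay below 0, and 3 lay below the median of the skeletal muscle markers, which was itself at -0.33. Among the 4532 entries of like level, 61.5% lay below 0.

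Standard errors were worked back from the fold change and the likelihood ratio of each gene and are approximate. For the 9 genes they ran between 0.27 and 0.37 on the log2 scale, with a median of 0.31, against 0.24 over the 4532 entries of like level. The approximate 95% intervals of all 9 genes included 0. For 6 genes the interval lay inside -1 to 1, so both a doubling and a halving fell outside it, while the intervals of Sgca, Dtna and Sgcb reached past -1. At these standard errors, a gene of the complex would have needed a log2 fold change of 0.92 to 1.26 in either direction to be called.

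**Figure D1:**
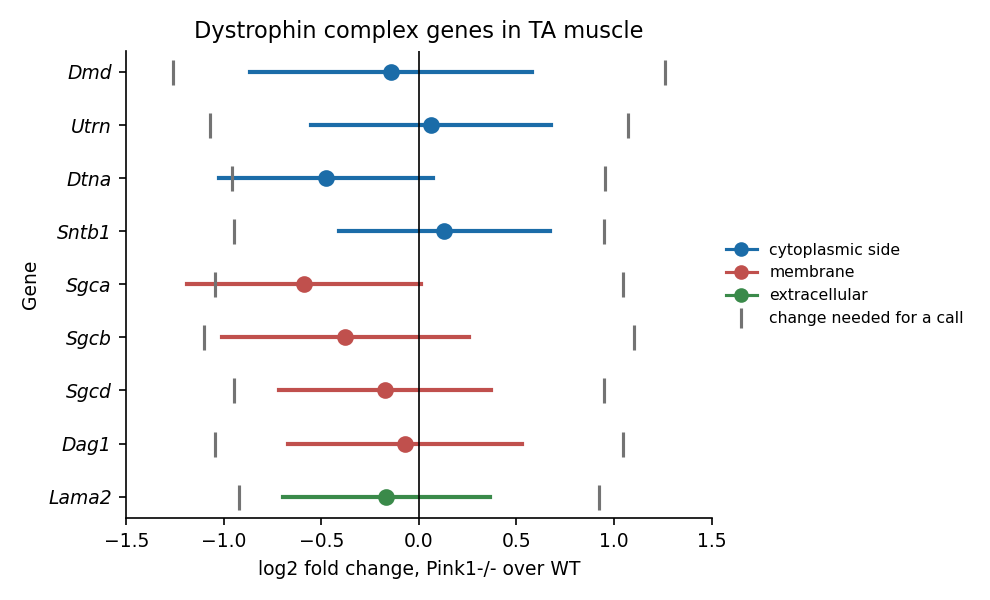
Log2 fold change of each dystrophin complex gene, Pink1-/- over WT, in TA muscle of 4 rats per genotype. Points are the fitted values, bars the approximate 95% intervals and grey ticks the change that a call would have needed at each gene's standard error; every bar crosses 0, and Sgca (-0.59) and Dtna (-0.48) lie farthest to the left.

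Dmd encodes dystrophin, the actin-binding rod of the complex. In the deposited table its log2 fold change was -0.14, with an approximate standard error of 0.37 and an interval of -0.87 to 0.58 (likelihood ratio test, adjusted p = 0.9998). On a linear scale the level in Pink1-/- muscle was 0.906 times that in WT, with an interval of 0.549 to 1.495. The entry, ENSRNOG00000046366, had an average log2 CPM of 8.02, and Dmd had the widest standard error of the 9 genes. A single entry stands for all transcripts of Dmd, which in mammals start from several promoters and encode the full-length muscle protein or short forms such as Dp71, so the value cannot show how any one form behaved.

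The RefSeq promoter table of the GRCr8 assembly gives 3 starts for Dmd on chromosome X, and the first and second stand 2073 kb apart. The 250 bases before each of these are shown because the single value of Dmd covers transcripts from both. Windows of the same kind are shown for Sgca, the gene of the complex with the smallest p, and for Lama2, the other gene with a CArG box. Capitals mark E-boxes (CANNTG, which reads the same on both strands and is bound by myogenic regulatory factors) and CArG boxes (bound by serum response factor), and no marked matches overlap. The first Dmd window is chrX:51205836-51206085, plus strand, and the second is chrX:53278763-53279012, plus strand. The Sgca window is chr10:80416076-80416325, minus strand, and the Lama2 window is chr1:19491896-19492145, plus strand.
Dmd, first start: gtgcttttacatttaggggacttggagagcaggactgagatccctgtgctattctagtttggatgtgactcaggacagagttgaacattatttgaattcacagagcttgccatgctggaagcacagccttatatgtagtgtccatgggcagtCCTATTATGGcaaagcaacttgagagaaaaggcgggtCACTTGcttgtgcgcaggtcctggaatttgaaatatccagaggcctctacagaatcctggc
Dmd, second start: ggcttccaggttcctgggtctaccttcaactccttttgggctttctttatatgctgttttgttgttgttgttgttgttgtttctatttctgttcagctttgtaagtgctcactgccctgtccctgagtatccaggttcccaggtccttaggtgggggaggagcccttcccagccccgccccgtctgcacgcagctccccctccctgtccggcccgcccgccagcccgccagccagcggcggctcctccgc
Sgca: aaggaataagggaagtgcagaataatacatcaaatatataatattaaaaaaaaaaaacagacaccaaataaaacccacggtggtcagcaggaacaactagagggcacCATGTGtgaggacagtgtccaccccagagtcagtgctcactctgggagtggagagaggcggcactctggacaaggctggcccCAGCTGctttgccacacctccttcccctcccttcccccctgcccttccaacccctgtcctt
Lama2: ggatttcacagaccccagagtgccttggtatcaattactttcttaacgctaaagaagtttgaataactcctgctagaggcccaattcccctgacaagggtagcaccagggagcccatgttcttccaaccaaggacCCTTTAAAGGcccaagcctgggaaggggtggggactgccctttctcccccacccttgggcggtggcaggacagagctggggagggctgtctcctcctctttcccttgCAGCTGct

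The windows before the first and second Dmd starts differed in these letters. The first holds 1 CArG box and 1 E-box and has 46.8% G and C, and the second holds neither and has 59.6% G and C. The Sgca window holds 2 E-boxes, and the Lama2 window holds 1 CArG box and 1 E-box. The promoter table covers 7 of the 9 genes with 9 windows, and has none for Dag1 and Sntb1. An E-box stood in 5 of these 9 windows, against 65.5% of 33469 windows of all genes, and a CArG box stood in 2 of 9, against 1.497% of all windows. The second Dmd start and the last lie 31 bases apart, so their windows largely overlap, and both hold neither motif. A match is a run of letters and not a measured site, and the genome build of the deposited table is not given in the sources used here.

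Utrn encodes utrophin, the autosomal relative of dystrophin, which is concentrated at the neuromuscular junction of mature fibers and is raised in dystrophin-deficient muscle of mice. In the deposited table it had a log2 fold change of 0.06, with an interval of -0.55 to 0.68 (adjusted p = 0.9998), at an average log2 CPM of 7.75. Utrn and Dmd thus both lay close to 0, and the fit gives no test of the difference between them.

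Dtna encodes alpha-dystrobrevin, which binds dystrophin and the syntrophins. Its log2 fold change of -0.48 was the second lowest of the 9, with a standard error of 0.28 and an interval of -1.02 to 0.07 (edgeR likelihood ratio test, adjusted p = 0.946). That value lay at the 5.65th percentile of all entries. Sntb1 encodes beta 1-syntrophin, an adaptor that brings channels and signaling enzymes to the complex. It had the highest value of the 9, at 0.13, with an interval of -0.41 to 0.67 (adjusted p = 0.9998) and an average log2 CPM of 3.99.

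The 4 membrane genes all lay below 0 as deposited, and relative to the skeletal muscle markers Sgcd and Dag1 lay above. None of the 4 was called. Sgca encodes alpha-sarcoglycan, which is made in striated muscle and is mutated in a limb-girdle muscular dystrophy. Sgca had the lowest value of the 9, at -0.59, with a standard error of 0.31 and an interval of -1.19 to 0.01 (edgeR likelihood ratio test, adjusted p = 0.824). This corresponds to 0.666 times the WT level in Pink1-/- muscle, and its p ranked 932nd among the 14016 entries. Sgcb, encoding beta-sarcoglycan, was at -0.38 with an interval of -1.01 to 0.26. Sgcd, encoding delta-sarcoglycan, was at -0.17 with an interval of -0.71 to 0.37. Both sarcoglycans are also made in smooth muscle, where they join a complex that contains epsilon-sarcoglycan. Dag1 encodes the precursor of alpha- and beta-dystroglycan, the laminin receptor and its membrane-spanning partner. Dag1 was at -0.07 with an interval of -0.67 to 0.53 and an average log2 CPM of 7.60, one of the values closest to 0 in the complex. The adjusted p of Sgcb, Sgcd and Dag1 was 0.9998 each.

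Lama2 encodes the alpha 2 chain of laminin-211, the main laminin of the muscle basement membrane and the ligand of dystroglycan. Its log2 fold change was -0.17, with the smallest standard error of the 9 genes, 0.27, and an interval of -0.70 to 0.36 (likelihood ratio test, adjusted p = 0.9998). Lama2 is made by fibers and by interstitial and Schwann cells. The marker lists of fibroblasts and Schwann cells had medians of 0.13 and 0.18. In each, 0 of 5 genes were called, where 1.27% of all entries were.

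**Figure D2:**
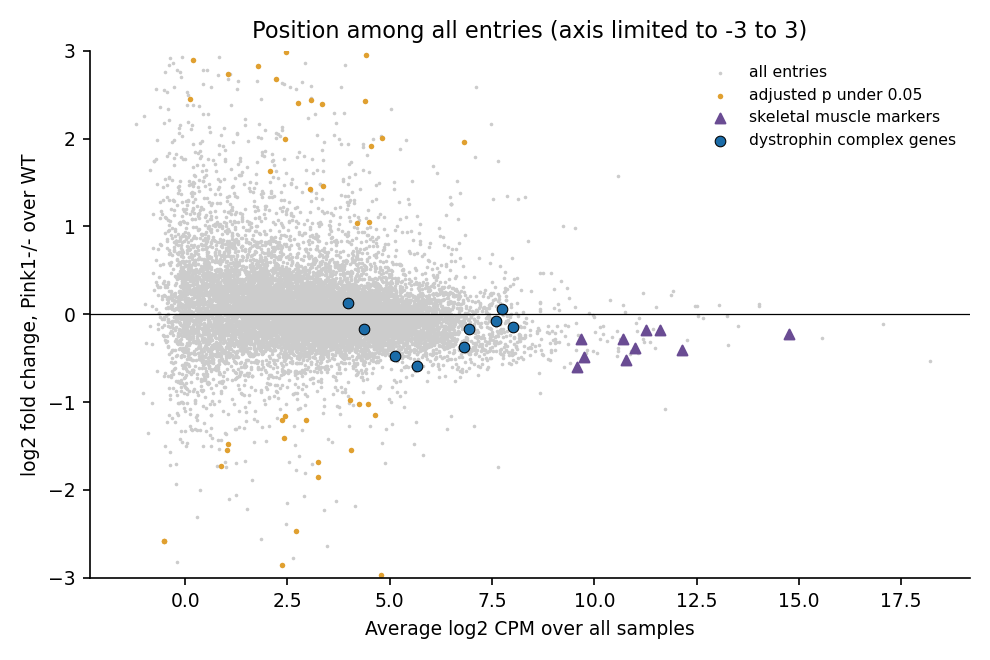
Log2 fold change, Pink1-/- over WT, against average log2 CPM for all entries of the table, with the dystrophin complex genes as blue circles, skeletal muscle markers as triangles and entries at an adjusted p under 0.05 in orange; 168 entries lie outside the axis. The 9 complex genes sit between -0.59 and 0.13, inside the cloud of entries of like level, and the 10 muscle markers sit between -0.60 and -0.18.

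Markers of cell types were read in the same comparison, and in bulk tissue fewer cells of a type and less RNA per cell cannot be told apart. All 10 skeletal muscle markers lay below 0, with none called (0 of 10 also at an unadjusted p under 0.05) and standard errors of 0.44 to 0.73. All 8 markers of squamous epithelium that have an entry lay above 0, with a median of 1.96 and values of 0.93 to 4.76. Among them Krt13 and Dsg3, a keratin and a desmosomal cadherin of layered epithelium, were higher, at 4.76 and 4.05 (adjusted p = 0.00393 and 0.0108). The part of these tissues in the values of the complex was not tested. Smooth muscle markers had a median of 0.23, endothelial markers -0.13 and macrophage markers 0.31, with 0 called of 5, 3 and 4 genes. Of these 12, 1 was at an unadjusted p under 0.05, Acta2 at 0.88. Over all entries 1.27% were called and 6.17% were at an unadjusted p under 0.05.

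The other genes of the pathway, 70 in 7 lists, were read in the same comparison. Of these, 65 have an entry, 3 of them under an older symbol. None of the 65 passed an adjusted p under 0.05 (edgeR likelihood ratio test), where 1.27% of all entries did. Bgn, Anxa1, Anxa2 and Myh3, all above 0, were the 4 with an unadjusted p under 0.05. Such a p was found for 6.17% of all entries, 615 above 0 and 250 below. The median log2 fold change of the 65 genes was -0.08, with 41 below 0 (63.1%) and 24 above. Over all entries 51.3% lay below 0. Among the 4532 entries in the range of average log2 CPM of the complex genes, 61.5% lay below 0, a share close to that of the 65. The match in level is rough, as the 65 genes spanned a wider range, from -0.03 to 11.2.

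On the cytoplasmic side, 11 of 13 further partners have an entry, with a median of -0.17 and 0 called or at an unadjusted p under 0.05. Ank2, an ankyrin that helps place dystrophin at costameres, and Sync, an intermediate filament protein that binds dystrobrevin, were at -0.38 and -0.36. Drp2, a dystrophin-related protein of Schwann cells, was at 0.26. In the membrane, Sspn, the sarcospan that binds the sarcoglycans, was at -0.58 with an interval of -1.20 to 0.04 (adjusted p = 0.887), close to the value of Sgca. The epsilon-sarcoglycan gene Sgce was at 0.18, above the values of Sgca, Sgcb and Sgcd. Of these, Sgca and Sgcb lay below the -0.33 of the skeletal muscle markers.

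Alpha-dystroglycan binds laminin only after a chain of sugars is added to it. All 18 genes listed for that chain and its sugar donors have an entry, 13 lay below 0 (72.2%) and 5 above, with a median of -0.20 and none called. Below 0 lay 51.3% of all entries, and 61.5% of the 4532 entries in the range of average log2 CPM of the complex genes. No gene of this list was at an unadjusted p under 0.05. Dolk, a dolichol kinase, had the smallest p of the list, at -0.45.

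Outside the fiber, 13 of 15 partners have an entry, with a median of -0.04, 5 above 0 and 8 below. Bgn, encoding the small proteoglycan biglycan that binds dystroglycan and sarcoglycans, was at 0.95 with an interval of 0.17 to 1.73 (adjusted p = 0.473). The basement membrane genes Nid1, Lamb1 and Col4a1, next to Bgn in order of p, were at -0.31, -0.23 and -0.21. Lama5 and Lamb2, also of the basement membrane, were at 0.21 and 0.08. The integrin alpha 7 beta 1, a second laminin receptor of muscle, and its linker genes had 7 of 7 entries, a median of -0.02 and none called or at an unadjusted p under 0.05. In that list Itgb1bp2, encoding melusin, was at -0.46, Itga7 at -0.24, Ilk at -0.09 and Tln1 at 0.08.

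Torn fiber membranes are resealed by dysferlin, annexins and their partners, and fibers regenerating after damage switch on embryonic myosin. Of 7 membrane repair genes, 5 lay above 0 and none was called. Anxa1 was at 2.17 (adjusted p = 0.131) and Anxa2 at 1.08 (adjusted p = 0.743). Both annexins are also abundant in squamous epithelium, whose markers had a median of 1.96 in the same comparison, and the part of that tissue was not tested. Dysf and Capn3, mutated in limb-girdle muscular dystrophies, were at -0.23 and -0.28. Among 6 genes of regenerating fibers 3 lay above 0 and 3 below, with a median of -0.02, and none was called. The embryonic myosin gene Myh3 was at 1.80 with an interval of 0.65 to 2.95 (likelihood ratio test, adjusted p = 0.130). Its average log2 CPM was 2.90, and whether it marks regenerating fibers here was not tested. The adhesion gene Ncam1 was at 0.45, the satellite cell factor Pax7 at -0.17 and the neonatal myosin gene Myh8 at -0.29. Myh8 had an average log2 CPM of 8.99, and whether it marks regenerating fibers here was not tested either.

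**Figure D3:**
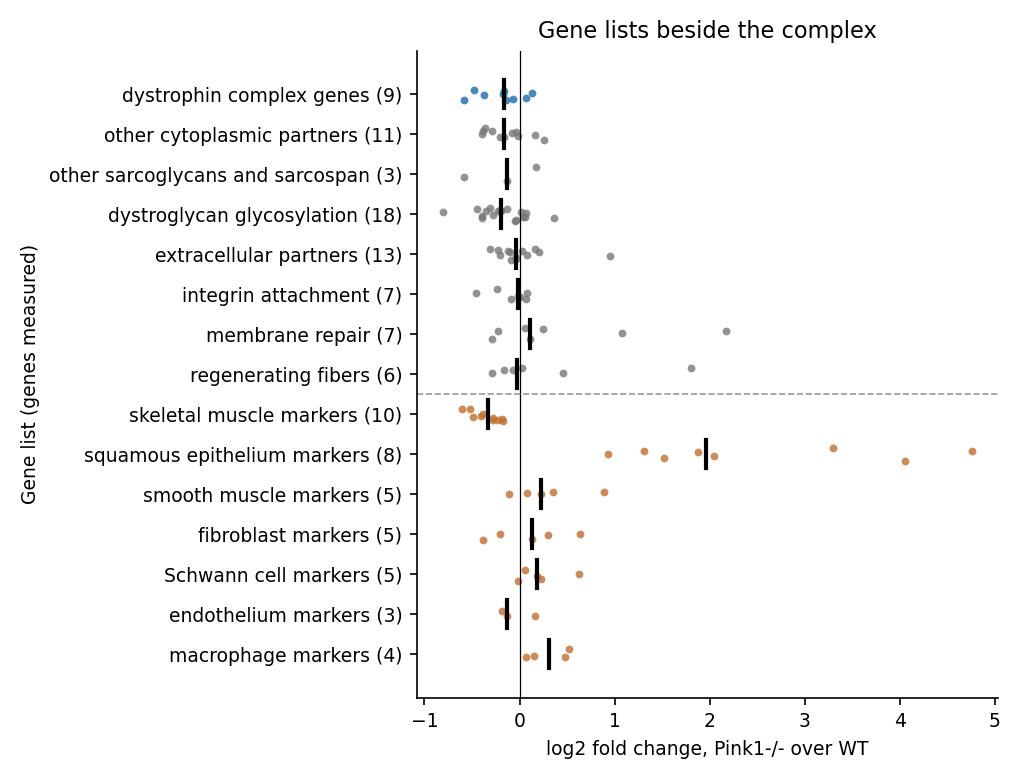
Log2 fold change, Pink1-/- over WT, of each gene (points) in the dystrophin complex, in the 7 lists of partner genes above the dashed line and in the 7 lists of cell type markers below it, with black bars at the medians and the number of genes measured in brackets. The complex and all 7 partner lists centre between -0.20 and 0.11, the skeletal muscle markers at -0.33 and the squamous epithelium markers at 1.96.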

How the data were processed

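RNA of TA muscle from 8 male rats, 4 Pink1-/- and 4 WT by their genotype labels, was sequenced with a TruSeq kit. RSEM and edgeR 3.9 stand in the processing notes of the submitters, with aligner, build, annotation and filters not given in the sources used here. A single deposited table holds 1 comparison and 0 columns per sample. It gives, per gene, a log2 fold change and an average log2 CPM from the authors' fit, the likelihood ratio as the authors' test score, and the authors' p-value, plain and adjusted. Because nothing else was at hand, these columns were read directly, no model was refitted, and depth per sample cannot be stated.

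Benjamini-Hochberg adjustment was repeated over 14016 entries and moved the deposited adjusted p by at most 8.76e-04. A call is an adjusted p under 0.05. Approximate standard errors are the size of the log2 fold change over the root of the likelihood ratio, with 95% intervals by the normal quantile, and these steps were tested on simulated data. The change needed for a call is 3.42 standard errors, from the largest p called. Named genes are the 9 members and up to 4 genes of smallest p in each of 7 lists. Acta1, Ckm, Krt13, Dsg3, Acta2, Lama5 and Lamb2 were named after their values were seen. Not every gene the rule covers is reported here. The members and lists were chosen with earlier results of these data known. Alternatives were a looser adjusted p (0.1), the unadjusted p, the authors' adjusted values, a minimum average log2 CPM of 0, recentred fold changes and a t quantile with 6 degrees of freedom. Promoter windows came from RefSeq (GRCr8). Scripts ran in Python 3.11.15 with scipy 1.17.1, pandas 2.3.3, numpy 2.4.6 and, for plots, matplotlib 3.10.9.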

Additional observations from a re-analysis of the deposited data

How the results depend on the processing

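The count of 0 called among the 9 genes stayed at 0 with a looser adjusted p (0.1), without adjustment at 0.05, with the authors' adjusted values and with a minimum average log2 CPM of 0. No interval excluded 0 with a t quantile of 2.45 either, under which 5 rather than 6 intervals lay inside -1 to 1. Among the 65 partner genes, 4 passed without adjustment at 0.05, a looser threshold that 6.17% of all entries passed. Under the other settings 0 of the 65 passed. Centring on all entries at or above that minimum gave a median of -0.15 over the 9 genes and turned no sign. Centring on the skeletal muscle markers, added after the data were seen, reversed the median to 0.17 and the values of Dmd to 0.19, Sgcd to 0.16, Dag1 to 0.26 and Lama2 to 0.17, by construction, because the markers' median is -0.33. Taking the mean over all entries of a symbol changed nothing, as each gene has 1 entry. Other normalizations, count models and leaving out each rat need values per rat and were not run. No paired analysis was possible because values per rat are absent from the table used. What depth limits is unknown for the same reason.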

Other observations

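These genes were chosen after values of the comparison had been seen, and none passed an adjusted p or an unadjusted p under 0.05 in the edgeR likelihood ratio test. Utrophin, alpha-dystrobrevin and syntrophins are concentrated under the neuromuscular junction. Of the 10 junction genes with an entry, 9 lay below 0 in Pink1-/- relative to WT (median -0.18, log2 scale). Over all entries 51.3% lay below 0, as did all 10 skeletal muscle markers. Of the 4532 entries in the range of average log2 CPM of the 9 complex genes, 61.5% lay below 0. The acetylcholine receptor subunit genes Chrna1, Chrnb1, Chrnd and Chrne were at -0.15, -0.12, -0.09 and -0.08 in the deposited table. Dok7, an activator of the receptor kinase MuSK, was at -0.51 and Ache, the acetylcholinesterase gene, at -0.41, while Musk was at 0.12. As the skeletal muscle markers were at a median of -0.33, 4 of these 10 junction genes lay below that level and 6 above it.

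Among channels that syntrophins bind, the muscle sodium channel gene Scn4a was at -0.56 with an interval of -1.29 to 0.16, the potassium channel gene Kcnj2 at -0.41 and the water channel gene Aqp4 at -0.06. The epithelial laminin chain gene Lamb3 was at 0.48, next to -0.17 for the muscle chain gene Lama2, and the fit gives no test of the difference between them.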
